A study of Mus musculus with 4 samples.

Results

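The 10 genes described here, Zscan4c, Zscan4d, Zscan4f, Zfp352, Tcstv1, Tcstv3, Tdpoz3, Tdpoz4, Dub1 and Eif1a, are named for the wave of transcription at the 2-cell stage of the mouse embryo, and their mRNA and ribosome protected fragments (RPFs) were read out in blastocysts. They were found by gene symbol, with the highest value taken where a symbol was listed more than once. Of the 10 symbols, 9 were listed in both assays, among 25039 symbols in RNA-seq, 20756 in Ribo-seq and 20714 in both. Dub1 was not a symbol in the gene column, and RefSeq gives it as an older name of Usp17la, whose row was read in its place.

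The data are 2 RNA-seq and 2 Ribo-seq libraries, 4 in all, from wild-type embryos at 1 stage, with no treatment compared. The paper states that ovulation was induced in the mothers with the hormones PMSG and hCG. The mothers were C57BL/6J mice of 4 weeks, mated with PWK/PhJ males, although the strain label reads C57BL/6N x PWK. Embryos were taken at the 8-cell stage, grown to blastocysts in KSOM medium and freed of the zona pellucida, so all 4 libraries share the in vitro culture. No library of the 2-cell stage was analysed here, so every level below is a level in the blastocyst and no change over time was measured. Whether an mRNA was left over from the 2-cell stage or made later was not tested. A blastocyst library pools trophectoderm and inner cell mass, so few cells with much RNA and many cells with little RNA cannot be told apart.

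In the mouse, the major wave of zygotic genome activation takes place at the 2-cell stage, when the embryonic genome takes over from maternal mRNA. Zscan4, Tcstv, Tdpoz and Zfp352 transcripts are hallmarks of that wave, appear again in rare 2-cell-like cells of embryonic stem cell cultures, and are activated in those cells by the transcription factor DUX. Most of these genes lie in clusters of near-identical copies, and the wave is known to fade as embryos cleave further.

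Promoter sequence of the Zscan4 genes is shown first, because members of the cluster are nearly the same in the very stretch from which they are switched on. The windows run from 250 bases before to 50 bases after the annotated start, from RefSeq on GRCm38.p6, and capitals mark 2 stretches: the first reads TGATTCTATCA on the opposite strand, a match to a looser form of the DUX motif, and the second is TATAAA.
Zscan4c, chr7:11005495-11005794, plus strand: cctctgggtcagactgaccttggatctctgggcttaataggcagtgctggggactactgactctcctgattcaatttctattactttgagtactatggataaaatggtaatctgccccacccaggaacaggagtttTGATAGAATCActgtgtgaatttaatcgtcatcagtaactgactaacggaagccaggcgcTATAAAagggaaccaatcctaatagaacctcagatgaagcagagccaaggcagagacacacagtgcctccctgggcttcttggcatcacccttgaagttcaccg
Zscan4d, chr7:11166099-11166398, minus strand: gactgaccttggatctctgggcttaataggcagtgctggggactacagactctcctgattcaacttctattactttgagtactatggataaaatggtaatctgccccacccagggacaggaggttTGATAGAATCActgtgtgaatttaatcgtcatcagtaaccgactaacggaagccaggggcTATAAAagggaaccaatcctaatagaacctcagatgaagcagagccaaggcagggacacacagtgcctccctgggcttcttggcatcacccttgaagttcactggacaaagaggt
Once shifted by 11 bases, the Zscan4c and Zscan4d windows were the same at 281 of 289 bases. At a shift of -23 bases, the Zscan4c and Zscan4f windows were the same at 275 of 277. The DUX motif itself, searched on both strands, was found in 3 of 32851 windows and in 0 of the 9 windows of members and paralogs searched. The looser form, with its 2 middle letters free, was present in 0.207% of all windows and in 4 of the 9, those of Zscan4b, Zscan4c, Zscan4d and Zscan4f, each time as TGATTCTATCA. TATAAA was present in 13.6% of all windows and in the same 4. Of 6 motifs searched, CCAAT was in 37.4% of all windows and in 7 of the 9, TGCACAC was in 4.40% and in 0, and the DUX motif with 1 free letter was in 0.0335% and in 0. The looser form was kept after its matches had been seen, so these counts describe letters and no binding.

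The Zfp352 window is shown for its repeat. Zfp352 encodes a zinc finger protein, and the most frequent run of 9 bases in this window, ACAACACAC, occurs 9 times, a count made after the repeat had been noticed; 1 of the 32851 windows holds 5 or more copies.
Zfp352, chr4:90218570-90218869, plus strand: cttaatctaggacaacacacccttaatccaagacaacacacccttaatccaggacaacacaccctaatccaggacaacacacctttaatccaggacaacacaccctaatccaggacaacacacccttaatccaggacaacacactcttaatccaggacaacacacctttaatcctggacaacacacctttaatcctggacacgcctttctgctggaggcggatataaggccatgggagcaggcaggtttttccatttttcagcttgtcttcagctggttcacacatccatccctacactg

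The first 60 coding bases of 3 Tdpoz genes are shown because Tdpoz3 and Tdpoz4 were the members with the fewest footprints above 0. They were read from GENCODE vM1 on NCBIM37, and capitals mark bases that differ from Tdpoz3.
Tdpoz3: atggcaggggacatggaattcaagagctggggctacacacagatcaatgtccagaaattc
Tdpoz4: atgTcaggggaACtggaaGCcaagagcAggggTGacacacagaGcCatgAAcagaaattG
Tdpoz5: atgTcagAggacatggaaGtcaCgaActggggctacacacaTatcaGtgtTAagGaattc
Tdpoz4 differed from Tdpoz3 at 13 of these 60 bases and Tdpoz5 at 10. Tdpoz1 was left out after its start had been seen to be offset against that of Tdpoz3. The same stretch of Eif1ax and of BB287469, relatives of Eif1a, is shown because Ribo-seq values of Eif1a stand beside theirs below, and capitals mark bases that differ from Eif1ax.
Eif1ax: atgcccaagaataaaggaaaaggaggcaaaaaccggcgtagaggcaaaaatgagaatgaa
BB287469: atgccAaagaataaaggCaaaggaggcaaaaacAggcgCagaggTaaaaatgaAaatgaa
Gm2016, Gm4027, Gm5662 and Gm8300, like BB287469 copies of Eif1a on chromosome 12, have the same 60 bases as BB287469, and each differs from Eif1ax at 6 of them.

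In blastocysts, 8 of the 9 listed members were at or near 0 in mRNA, and Eif1a, which encodes a translation initiation factor of the eIF1A family, was the exception at 70.0 and 77.4 FPKM (fragments per kilobase, scaled to library depth). In mRNA, 6 members were listed at 0 in both replicates, 2 were listed at 0 in 1 replicate, and 1 had a mean of at least 1 FPKM. Among all genes, 44.5% were listed at 0 in both RNA-seq replicates and 36.3% had a mean of at least 1 FPKM. In RPF, 6 of the 9 were listed at 0 in both replicates, beside 46.7% of all genes, and 3 had a mean of at least 1 FPKM, beside 48.4%. Of those 3, Tdpoz3 and Tdpoz4 reached it through replicate 1 alone, and without that library the number is 1.

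**Figure D1:**
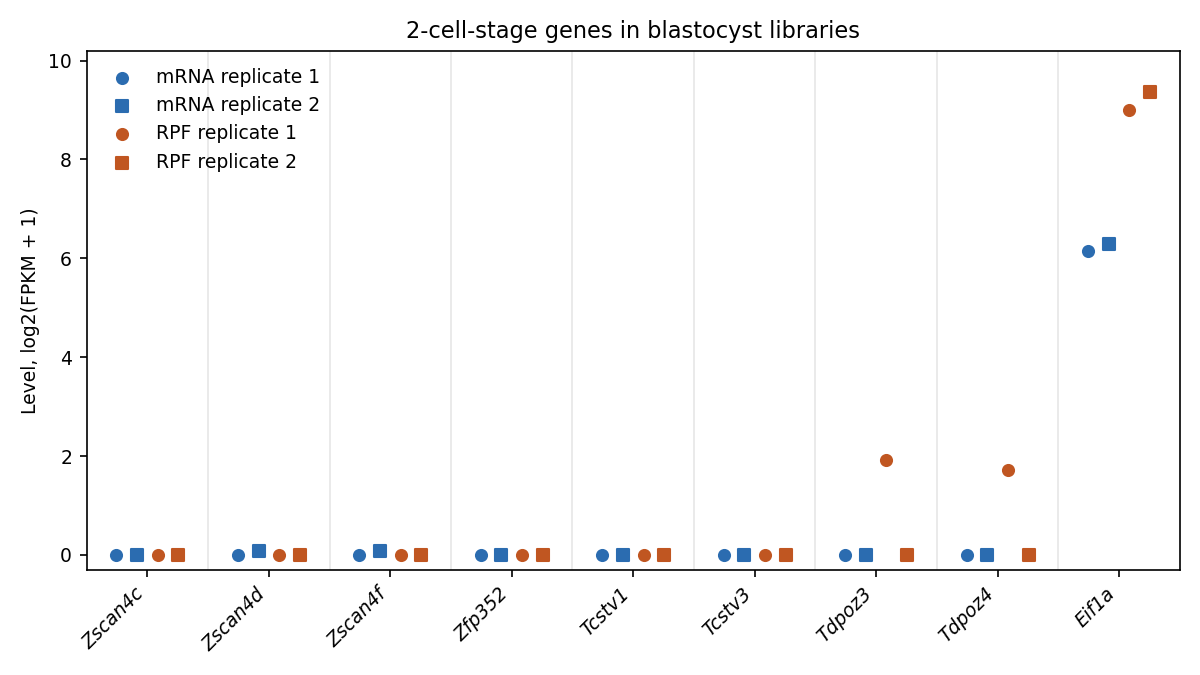
Levels of the 9 listed members as log2(FPKM + 1) in each of the 4 libraries; circles are replicate 1, squares replicate 2, blue mRNA and orange RPF. Eif1a is high in all 4 libraries, and Tdpoz3 and Tdpoz4 leave 0 visibly in RPF replicate 1 alone.

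What a value of 0 can exclude depends on depth. The files hold no counts, but low FPKM values fall on steps, and these gave 5457889 and 5155490 fragments in RNA-seq (replicate 1, then replicate 2) against 531029 and 482904 in Ribo-seq. With these totals, 65.2% and 62.1% of the low RNA-seq values came within 0.1 of a whole fragment. In Ribo-seq 83.4% and 83.0% of the low values did. For a total not fitted to the values, 20% would by chance. The totals were chosen to bring these same values near whole fragments, so the shares describe the fit and do not test it. For a sequence of 1 kilobase, 3 fragments amount to 0.687 and 0.728 FPKM in RNA-seq and to 7.07 and 7.77 FPKM in Ribo-seq, so Ribo-seq could miss levels that RNA-seq would show. Of 84 symbols of ribosomal protein genes, 83 had a mean of at least 10 FPKM in RNA-seq, and of 82 in Ribo-seq 81 did; the 1 listed at 0 in both assays was Rpl3l, a paralog known from muscle. Whether a listed 0 is a failed estimate was not tested for the members.

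Zscan4 genes encode zinc finger proteins with a SCAN domain that are linked to telomere maintenance in embryonic stem cells. Zscan4c (chr7:11591071-11595896, plus strand, NCBIM37) was listed at 0 in all 4 libraries. Zscan4d (chr7:11746992-11751497, minus strand) was listed at 0 and 0.0537 FPKM in mRNA and at 0 in both RPF replicates. Zscan4f (chr7:11983264-11988090, plus strand) was listed at 0 and 0.0590 FPKM in mRNA and at 0 in both RPF replicates. Both values above 0 came from RNA-seq replicate 2, the single library with any mRNA listed for Zscan4d or Zscan4f. They amount to 0.496 fragments for Zscan4d and, on its shorter full-length transcript of 1829 bases, 0.496 fragments for Zscan4f, 0.992 in sum. That transcript was chosen because of this sum, and the 2277-base transcript gives 0.632 fragments for Zscan4f. For Zscan4c, 3 fragments would be 0.262 and 0.277 FPKM in RNA-seq and 4.28 and 4.70 FPKM in Ribo-seq, and at these depths Zscan4 mRNA and footprints were not detectable above that floor. The paralogs Zscan4a and Zscan4b were listed at 0 wherever they were listed, Zscan4a in RNA-seq only.

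Footprint-length stretches of Zscan4c and Zscan4f can seldom be placed on 1 gene. In 28-base windows, 3.75% of the coding sequence of Zscan4c, 31.5% of Zscan4d and 1.87% of Zscan4f occurred at 1 place in the genome. The Zscan4c and Zscan4f coding sequences differ at 6 bases and those of Zscan4c and Zscan4d at 35. The authors kept reads with up to 20 places, and no Zscan4 window had more than 11, so such reads would not have been removed by that limit.

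**Figure D2:**
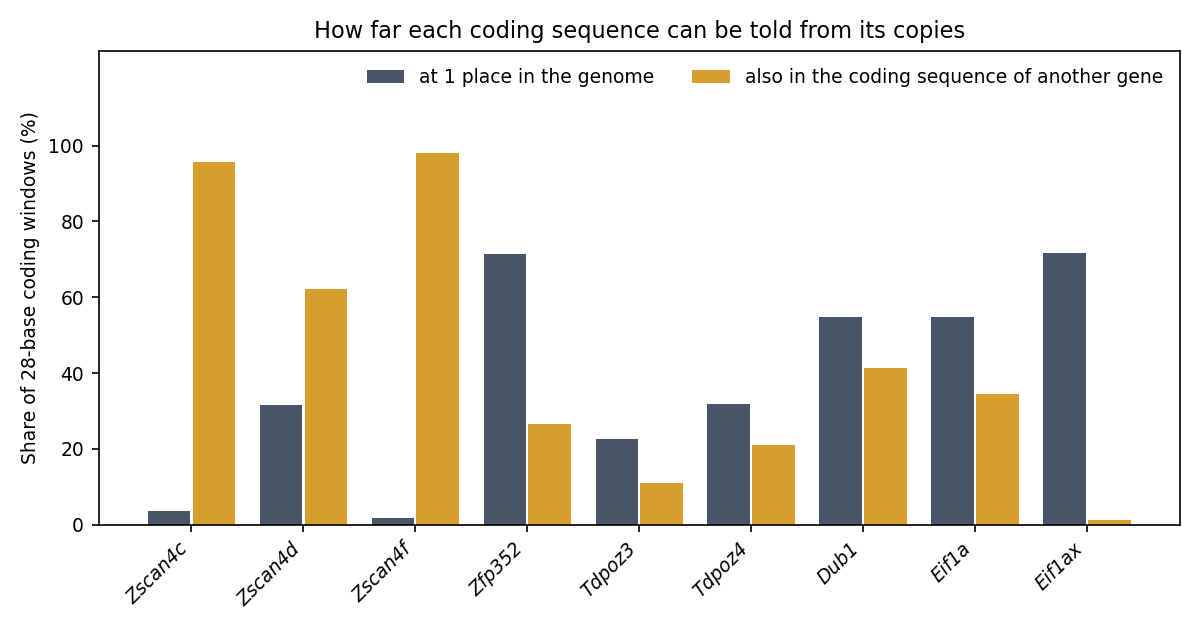
Share of the 28-base windows of each coding sequence (percent, vertical axis) found at 1 place in NCBIM37 (grey) or also in the coding sequence of another gene (yellow). Zscan4c and Zscan4f have 3.75% and 1.87% of windows at 1 place, Zfp352 71.5% and Eif1a 54.9%.

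Zfp352 (chr4:89885511-89892393, plus strand, NCBIM37) was listed at 0 in all 4 libraries. Of its coding windows 71.5% occur at 1 place, the highest share among the members with a gene model. For its 2276-base transcript, 3 fragments would be 0.265 and 0.280 FPKM in RNA-seq and 3.88 and 4.27 FPKM in Ribo-seq. Tcstv1 and Tcstv3, named for 2-cell-stage transcript variants, were likewise listed at 0 in all 4 libraries, and no windows were counted for them because GENCODE vM1 has no transcript under these names. Usp17la, the row read for Dub1 (chr7:112005523-112011181, plus strand), which encodes a deubiquitinating enzyme, was listed at 0 in all 4 libraries. For it 54.8% of windows occur at 1 place, and its relatives Usp17lb, Usp17lc, Usp17ld and Usp17le were also at 0 in all 4 libraries.

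Tdpoz genes encode proteins with TRAF and POZ domains related to the ubiquitin ligase adaptor Spop. Tdpoz3 (chr3:93629942-93631039, plus strand, NCBIM37) was listed at 0 in both mRNA replicates and at 2.79 and 0 FPKM in RPF. Tdpoz4 (chr3:93600320-93601432, plus strand) was listed at 0 in both mRNA replicates and at 2.31 and 0 FPKM in RPF. RPF replicate 1 was thus the single library above 0 for both. These values amount to 1.33 and 1.12 footprints, under the floor of 3 footprints, which is 6.29 FPKM for Tdpoz3 and 6.19 FPKM for Tdpoz4 in that library.

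Of their paralogs on chromosome 3, Tdpoz2, a pseudogene in GENCODE vM1, had the highest values, 4.56 and 5.82 FPKM in mRNA and 30.7 and 35.1 FPKM in RPF. Tdpoz1 had 0.957 and 0.490 FPKM in mRNA and 4.44 and 0 FPKM in RPF. Tdpoz5, listed in Ribo-seq only, had 0.285 and 1.26 FPKM, or 0.124 and 0.499 footprints, fewer than Tdpoz3 and Tdpoz4 in replicate 1. Tdpoz2 was thus the family member with signal in every library. Of the Tdpoz3 windows 22.6% occur at 1 place, and 10.9% also lie in the coding sequence of another gene. For Tdpoz4 the shares are 32.0% and 21.1%. Only coding transcripts were searched for sharing, so sharing with the pseudogene Tdpoz2 was not counted. Within 2 mismatches, as the authors allowed in Ribo-seq, 47.2% of Tdpoz3 and 25.0% of Tdpoz4 windows matched another of Tdpoz1, Tdpoz3, Tdpoz4 and Tdpoz5. Whether footprints of Tdpoz2 or Tdpoz1 entered the values of Tdpoz3 and Tdpoz4 was not tested.

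**Figure D3:**
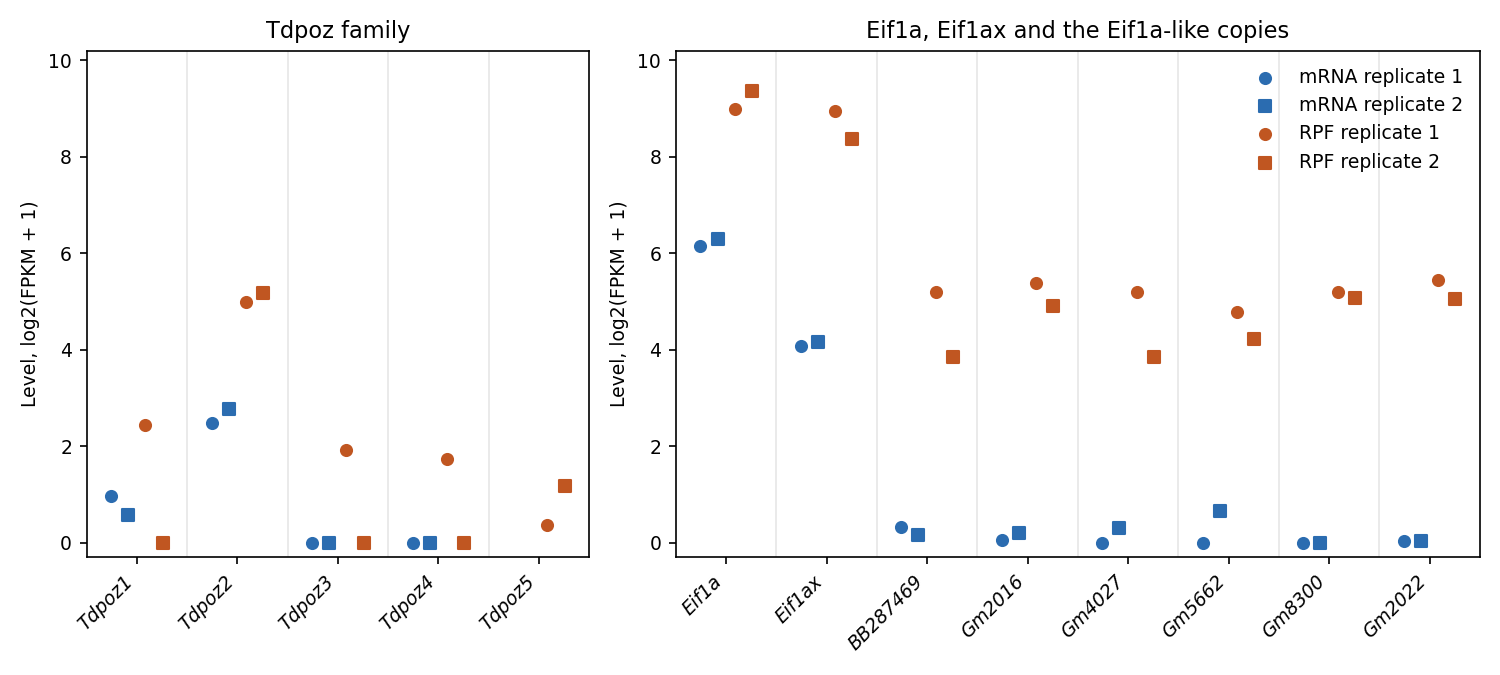
Levels as log2(FPKM + 1) of the Tdpoz family (left) and of Eif1a, Eif1ax and 6 Eif1a-like copies (right) in each library, with symbols as in the plot of the members; Tdpoz5 was not listed in RNA-seq. The 6 copies have RPF values of 13.4 to 42.3 FPKM beside mRNA values of 0 to 0.586 FPKM.

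Eif1a (18:46757358-46769879, plus strand, NCBIM37) was the member with clear mRNA and RPF signal. Its mRNA was 70.0 and 77.4 FPKM, 73.7 ± 5.25 (SD, n = 2), above 96.1% of all genes. Its RPF was 508 and 658 FPKM, 583 ± 106 (SD, n = 2), above 97.8% of all genes. The RPF values stand for 63.4 and 74.7 footprints, so they rest on far more than the floor. Eif1ax, the X-linked gene for the same kind of factor (X:155810110-155827860), had 15.98 and 16.9 FPKM in mRNA and 493 and 330 FPKM in RPF. Eif1a mRNA was therefore 4.38 and 4.58 times that of Eif1ax, whereas its RPF was 1.03 and 1.99 times that of Eif1ax. The ratio was lower in both Ribo-seq libraries than in both RNA-seq libraries (two-sided exact permutation p = 0.333, the smallest that 2 libraries against 2 allow).

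Levels of RPF relative to mRNA were compared in limma on log2(FPKM + 1), centred on the median of each library, over 8327 genes with a mean of at least 1 FPKM in both assays. Across all genes tested, 10.3% were called higher and 8.6% lower in RPF, at an adjusted p under 0.05 (Benjamini-Hochberg) and a log2 difference of at least 1. Eif1a was the 1 member that entered the test, and it was higher in RPF than in mRNA by a log2 difference of 1.45 (SE 0.21, 95% interval 0.92 to 1.99, limma adjusted p = 0.0108). This difference was larger than that of 91.3% of the genes tested. Without RNA-seq replicate 1 it was 1.39 with an adjusted p of 0.0552, and without RNA-seq replicate 2 it was 1.52 with an adjusted p of 0.0458. In these fits the Ribo-seq libraries alone give the spread, and the lone RNA-seq library is assumed to vary like them. The labels do not say that replicates came from separate collections of embryos, so these p-values measure the spread between libraries, which may be technical. With the Cufflinks lengths assumed for the floors (mean 200 bases), 1 footprint was 8.01 FPKM for Eif1a (435 coding bases) in Ribo-seq replicate 1. For Zscan4c (1521 coding bases) it was 1.43 FPKM there. FPKM per footprint thus rose more steeply than coding length fell, which median centring does not remove. How far this raised the RPF rank and difference of Eif1a, or those of Eif1ax (also 435 coding bases) and Eif1, was not tested.

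Among genes listed as relatives of the members, 7 were tested: Eif1, Eif1ad, Eif1ax, Eif1b, Spop, Spopl and Tdpoz2. Eif1 and Eif1b were listed by name and were not shown to be copies of Eif1a. Of the 7, 2 were higher in RPF and 1 lower, beside 10.3% and 8.6% of all genes tested. The median log2 difference was -0.33, beside -0.24 over all genes tested. Eif1ax was higher by 3.03 (SE 0.24, limma adjusted p = 0.00188). Eif1, which takes part in start codon selection, was higher by 1.10 (SE 0.18, limma adjusted p = 0.0152), and was not called under quantile normalization (0.79), without RNA-seq replicate 1 (0.89) or without Ribo-seq replicate 2 (0.99). Spop was lower in RPF by a log2 difference of -2.12 (limma adjusted p = 0.0487), a call lost with a pseudocount of 0.1 (adjusted p = 0.0610), no filter (0.733), quantile normalization (0.0690), the replicate block (0.0806) and without either RNA-seq replicate. Tdpoz2 had a log2 difference of 0.96 and did not pass (limma adjusted p = 0.0879).

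**Figure D4:**
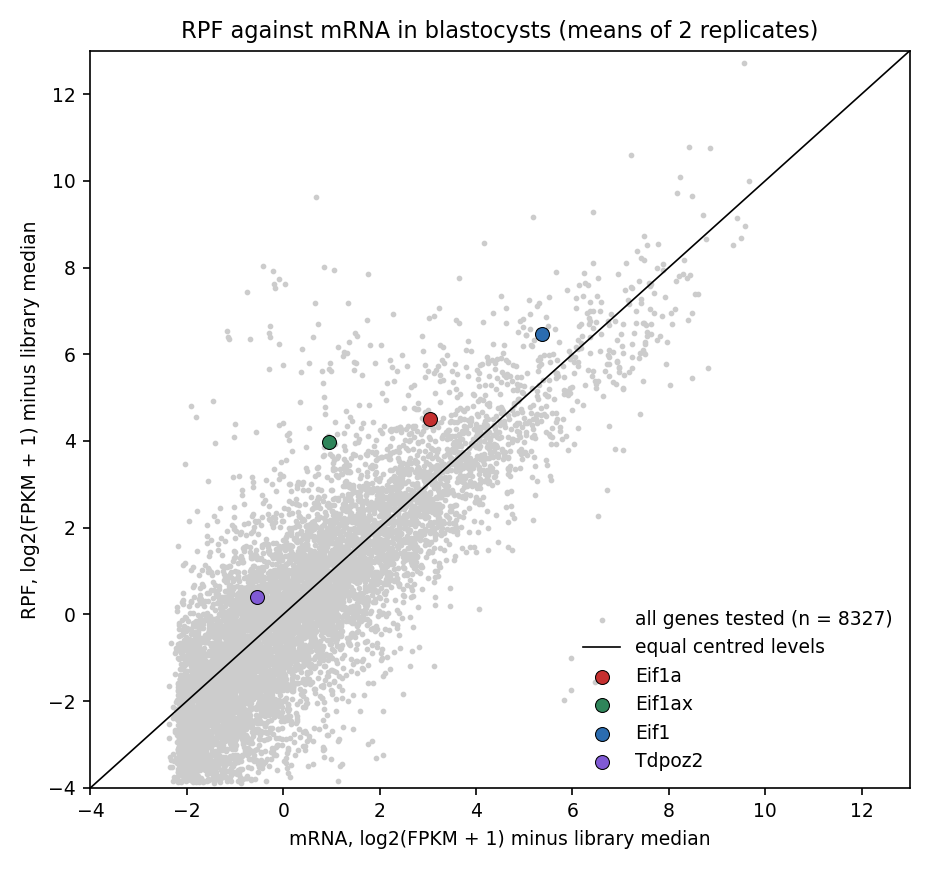
RPF against mRNA for the 8327 genes tested, both as log2(FPKM + 1) minus the library median and as means of 2 replicates; the line marks equal centred levels. Eif1a, Eif1ax and Eif1 lie above the line and passed the test, and Tdpoz2 lies above it and did not.

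Copies of Eif1a had a few footprints with little mRNA, a pattern not particular to them. Among the blastocyst lineage markers below, Sox17 had 0.204 and 0 FPKM in mRNA beside 32.7 and 27.6 FPKM in RPF. Gata4 had 0.0574 and 0 FPKM in mRNA beside 15.0 and 20.2 FPKM in RPF. Of the markers under 1 FPKM in mRNA, Sox7 had the lowest RPF, 1.99 and 0 FPKM. BB287469, Gm2016, Gm2022, Gm4027, Gm5662 and Gm8300 had mRNA values of 0 to 0.586 FPKM and RPF values of 13.4 to 42.3 FPKM. BB287469 had 0.252 and 0.116 FPKM in mRNA and 35.5 and 13.4 FPKM in RPF, or 4.43 and 1.52 footprints. BB287469 and Gm4027 have the same coding sequence and the same number of footprints in both Ribo-seq libraries. The coding sequences of 5 copies differ from that of Eif1a at 22 to 28 of 435 bases. They share 17.6% to 27.9% of the Eif1a windows exactly and 59.6% to 76.5% within the 2 mismatches that the authors allowed in Ribo-seq. Eif1ax and Eif1a share 0.245% of windows exactly and differ at 63 bases. The 5 copies together made up 0.406% and 1.38% of the summed mRNA of Eif1a and copies, and 25.5% and 13.9% of the summed RPF. With the copies added to Eif1a in each library, a choice made after the values were seen, the log2 difference was 1.76 (limma adjusted p = 0.00344). How the footprints of copies and Eif1a were divided was not tested.

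Other genes of the 2-cell wave gave a mixed picture. Of 51 listed in RNA-seq, 19 were at 0 in both replicates and 12 had a mean of at least 1 FPKM, beside 44.5% and 36.3% of all genes. Of 50 in Ribo-seq, 25 were at 0 in both replicates and 21 had a mean of at least 1 FPKM, beside 46.7% and 48.4%. The list shares 16 names with the relatives above. Pramel5 had 86.4 and 58.6 FPKM in mRNA and 114 and 129 FPKM in RPF. Chka, a choline kinase, had 13.9 and 15.6 FPKM in mRNA, and Zfp809, which silences retroviral elements, had 11.4 and 12.3. Gm8994 had 1.72 and 2.30 FPKM in mRNA and 86.6 and 90.7 FPKM in RPF. Of 11 tested, Gm8994 was called, higher in RPF by 3.40 (SE 0.29, limma adjusted p = 0.00231), and 0 were called lower in limma. Over all genes tested, 10.3% were higher and 8.6% lower. At an unadjusted p under 0.05 in limma 3 were lower. The median log2 difference was -0.74, beside -0.24 over all genes tested.

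Factors listed as activators of 2-cell genes were present in part. Dux had 0 and 0.106 FPKM in mRNA and 1.03 and 1.13 FPKM in RPF, the latter 0.510 and 0.511 footprints. Dppa3 had 740 and 576.9 FPKM in mRNA, and Crxos had 1973 ± 386 (SD, n = 2). Klf5 had 94.2 and 96.7 FPKM. Of 12 activators tested, 2 were higher in RPF (Nr5a2 by 2.02 and Yap1 by 2.37), beside 10.3% of all genes tested. In the other direction, 1 was lower (Crxos, log2 difference -1.43, but 0.44 with no filter), beside 8.6% of all genes tested. The median of the activators was 0.51, beside -0.24 over all genes tested. Nr5a2 lost its call without RNA-seq replicate 2 (1.44) and Yap1 without RNA-seq replicate 1 (2.11). Of 26 listed repressors of the 2-cell programme, 23 had a mean mRNA of at least 1 FPKM, beside 36.3% of all genes. The highest were Ncl (57.6 and 49.3 FPKM), Trim28 (39.5 and 39.3) and Chaf1b (18.6 and 17.6). Of 23 tested, 6 were higher in RPF (Trim28, Rybp, Dnmt3b, Lin28a, Ncl and Max) and 0 lower in limma, beside 10.3% and 8.6% of all genes tested. At an unadjusted p under 0.05 in limma 2 were lower. The median was 0.58, beside -0.24 over all genes tested. Trim28, a co-repressor of retroviral elements, was higher by 1.66 (limma adjusted p = 0.00389). Dnmt3b lost its call with a pseudocount of 0.1 (adjusted p = 0.0568 in limma), under quantile normalization (0.0553), with the replicate block (0.0711) and without either RNA-seq replicate or Ribo-seq replicate 1. Rybp lost its call with the block (0.0588 in limma) and without either RNA-seq replicate, and Lin28a without RNA-seq replicate 1. Chaf1b, with a log2 difference of -1.13 (limma adjusted p = 0.0559), was called lower with a pseudocount of 0.1 (-1.22), a filter at 5 FPKM (-1.18), quantile normalization (-1.17) and without Ribo-seq replicate 1 (-1.39).

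Of 23 blastocyst lineage markers, 15 had a mean mRNA of at least 1 FPKM and 22 a mean RPF of at least 1 FPKM. Among all genes the shares were 36.3% and 48.4%. Cdx2, a trophectoderm factor, had 21.6 and 21.0 FPKM in mRNA. Markers of the inner cell mass were lower in RNA-seq replicate 2, with Pou5f1 at 70.1 and 28.6 FPKM, Nanog at 69.8 and 28.1 and Tdgf1 at 22.2 and 2.12. The 8 markers under 1 FPKM in mRNA were Sox2, Klf4, Esrrb, Fgf4, Pdgfra and the primitive endoderm factors Gata4, Sox17 and Sox7. Of 15 tested, 3 were higher in RPF (Cdx2, Pou5f1 and Gata6) and 0 lower in limma, beside 10.3% and 8.6% of all genes tested. Krt8 (log2 difference -0.94, limma adjusted p = 0.0161) and Krt18 (-0.55, limma adjusted p = 0.0189) passed the p threshold but not the limit of 1. Pou5f1 lost its call without RNA-seq replicate 2 (1.27), and Gata6 without either RNA-seq replicate (1.63 and 1.37). Krt8 was called lower with a pseudocount of 0.1 (-1.04), under quantile normalization (-1.19) and without RNA-seq replicate 2 (-1.13). Of 20 oocyte markers listed, 12 were at 0 in both RNA-seq replicates, beside 44.5% of all genes. Khdc3 (240 and 207 FPKM) and Ooep (49.0 and 62.9) were the 2 with a mean of at least 1 FPKM. Of 15 cumulus and granulosa markers 11 were at 0 in mRNA, with Cyp11a1 highest at 12.6 and 2.71 FPKM. Of 12 sperm markers 8 were at 0 in mRNA, with Odf2 highest at 11.3 and 11.0. In RPF, 15 of 20 oocyte, 12 of 15 cumulus and granulosa and 10 of 12 sperm markers were at 0 in both replicates. The share of all genes was 46.7%. The sperm marker Prm2 had 0 and 33.7 FPKM in RPF and 0 in mRNA. In the ratio test, 0 of the 5 oocyte, cumulus and sperm markers tested were called in limma, and 1, Khdc3, passed the p threshold but not the limit of 1 (log2 difference 0.69, limma adjusted p = 0.0325). Replicates had a Spearman correlation across genes of 0.924 in mRNA and 0.898 in RPF, as a description, since genes are not replicates.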

How the data were processed

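The authors trimmed RNA-seq reads with Trim Galore 0.4.2 and Ribo-seq reads with cutadapt 1.14, discarded rRNA reads in Ribo-seq with Bowtie2 2.2.2, mapped to the mm9 transcriptome with STAR 2.5.3a (up to 20 places per read; 2 mismatches in Ribo-seq) and computed FPKM with Cufflinks 2.2.1, on transcripts for RNA-seq and coding sequences for Ribo-seq. The deposited FPKM, 1 file per library, were used as they stand, so reads shared between copies are divided as Cufflinks divided them. Groups and replicate numbers came from the sample labels.

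Where a symbol recurred, its highest FPKM was kept. Fragments were recovered from the steps of low values with the default Cufflinks lengths (mean 200, SD 80 bases); the score at which a total was accepted was set after the estimates had been seen, and the floors cover counting error only. RPF was compared with mRNA in limma 3.58.1 under R 4.3.3 on log2(FPKM + 1), centred by library medians, whose RPF minus mRNA difference was 1.50, for genes whose mean reached 1 FPKM in each assay. A fold on this scale understates changes of low genes. Coding windows of 28 bases were counted on NCBIM37 with GENCODE vM1 (coordinates of that build, mm9), and promoters were RefSeq windows on GRCm38.p6. Other steps used Python 3.11.15, numpy 2.4.6, pandas 2.3.3 and scipy 1.17.1.

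Named genes were the 10 members, their relatives, and from each other list the 3 highest in mRNA, the 3 highest in RPF and those called. Of these, the ones that carry a result are described. The members and lists were chosen with earlier results of these data known. The depth estimate, the window count and the limma comparison were each tested on simulated data. The depth simulation used the same assumed fragment lengths as the estimate, so it did not test those lengths. For RPF against mRNA with 200 of 8327 genes changed, limma recovered 58% at a log2 change of 2 and 76% at 3. Unchanged genes made up 4.97% of its calls. The noise model and the pass mark of that simulation were replaced once, after a first version had missed its preset recovery. Alternatives were the pseudocount, the filter, quantile normalization, a replicate block, sums for repeated symbols, other level limits and each replicate left out.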

Additional observations from a re-analysis of the deposited data

How the results depend on the processing

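Eif1a stayed higher in RPF under all 11 alternatives (log2 difference 1.18 to 3.32) and lost its call in 1, without RNA-seq replicate 1 (1.39); with a replicate left out it was 1.23 to 1.68. Genes called across the table numbered 861 higher and 716 lower; with no filter on low values they were 5359 and 149 of 20714, and with a replicate left out 428 to 1334 higher and 140 to 1962 lower, lowest without RNA-seq replicate 2 and highest without Ribo-seq replicate 1. The cause was not tested. With the replicate number as a block, 769 were higher and 618 lower, and Eif1a kept its call at 1.45 (limma adjusted p = 0.00953); replicate differences of the 2 assays correlated at 0.00994 over the genes tested, so the numbers were not shown to pair libraries. Tdpoz2 passed with no filter (2.82) and without Ribo-seq replicate 1 (1.09). With no filter, which moves the median used for centring, Crxos (0.44), Chaf1b (0.74), Krt8 (0.92) and Krt18 (1.31) turned from lower to higher. Eif1ax, Gm8994, Trim28, Ncl, Max and Cdx2 kept their calls under every alternative that tested them. Under the block Spop, Dnmt3b and Rybp lost theirs, and no other gene named as called did.

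The number of members with a mean RPF of at least 1 FPKM was 3, and 1 at a limit of 5 FPKM; with a Ribo-seq replicate left out it was 1 to 3. Among genes above 0 in at least 1 library, Eif1a exceeded 93.0% in mRNA and 95.8% in RPF, Zscan4d 3.36% and Zscan4f 3.72% in mRNA, and Tdpoz4 10.6% in RPF. Over all genes, with a replicate left out, the share exceeded was 0 to 51.7% for Zscan4d and 0 to 51.8% for Zscan4f in mRNA, and 0 to 58.5% for Tdpoz3 and 0 to 57.1% for Tdpoz4 in RPF. Values of these 4 genes rest on 1 library and fewer than 3 fragments each.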
